A study of Mus musculus with 20 samples.

Results

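A list of 36 genes of motile cilia and ependymal cells was followed through the neocortex and hippocampus of mice lacking the APP family in excitatory neurons. The members were listed by name, and 34 of the 36 had a row among the 24421 genes counted in each library. Expression of Dnah3 and Dnah12 was not analysed here. Vwa3a, Map3k19 and Vwa5b1 are on the list because earlier results of these data showed them lower, so their tests are not independent evidence of that direction, and the other 31 members with a row were listed for their place in the cilium or in ciliated cells. The paper lists Vwa3a and Map3k19 as lower in both regions in its own edgeR analysis of these libraries. It also reports both as lower by qRT-PCR in other mice. The paper's edgeR analysis called more genes in each region than edgeR's quasi-likelihood test, the main test used here. That test called 26 genes in the neocortex and 67 in the hippocampus. A member that it did not call is therefore not shown to be unchanged. The question was whether the lower levels of Vwa3a and Map3k19 go along with lower levels of the genes that mark ependymal cells.

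The libraries are poly-A RNA-seq of both regions, 5 for each of the 4 combinations of genotype and region (20 in total), from mice of 3 months. The cTKO mice, labelled APP/APLP1/APLP2 -/-, carry floxed alleles of App, Aplp1 and Aplp2 and a Camk2a-Cre transgene, which recombines them in excitatory neurons of the postnatal forebrain. The controls, labelled wild type, are littermates that carry the same floxed alleles without Cre, and mice of both sexes on a C57BL/6J and 129 hybrid background were used. Ependymal cells are not excitatory neurons, recombination in them was not measured here, and the dissected tissue is a mixture of all the cells of a region.

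Ependymal cells line the ventricles of the brain and carry tufts of motile cilia whose beating moves cerebrospinal fluid. The shaft of such a cilium is built of doublet microtubules around a central pair, and dynein arms on the doublets drive the beat while radial spokes pass control signals from the central pair. FOXJ1 and the RFX factors switch on the genes of this apparatus together, and the choroid plexus, which sits in the same ventricles, is covered by a related epithelium that secretes the fluid.

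Because the genes of motile cilia are known to share control by these factors, the promoters were searched for their letters. Of the members, 31 matched a RefSeq promoter of GRCm38.p6. They include Dnah12, Vwa3a and Vwa5b1, so they are a different set from the 31 other members with a row. The search covered the 250 bases before the start site on both strands. The half-site of the X-box bound by RFX factors, GTTGCC or its reverse complement GGCAAC, was found in 10 of the 31 (32.3%), against 11.8% of the promoters of all 27025 genes. The forkhead letters TGTTTAC, or GTAAACA on the other strand, were found in 2 of the 31 (6.45%), against 3.54% of all. The window of Vwa3a held neither, and its RefSeq start site lies 239 bases inside the gene as annotated in GENCODE. Nor did that of Vwa5b1, whose start site lies 11892 bases inside. The bases before the annotated 5′ end were thus hardly searched for Vwa3a and not searched for Vwa5b1. The start site of Tekt4, also among the 31, lies 16975 bases inside its gene. Map3k19 was not among the 31. The 5 windows printed here are 4 with the half-site and, for contrast, that of Tmem212, which has neither. They run 5′ to 3′ up to the start site, with the matched letters in capitals. Spag16 lies at chr1:69826720-69826969 on the plus strand, Mlf1 at chr3:67373847-67374096 on the plus strand, Lrrc23 at chr6:124779728-124779977 on the minus strand, Tekt2 at chr4:126325689-126325938 on the minus strand and Tmem212 at chr3:27896369-27896618 on the minus strand.
Spag16: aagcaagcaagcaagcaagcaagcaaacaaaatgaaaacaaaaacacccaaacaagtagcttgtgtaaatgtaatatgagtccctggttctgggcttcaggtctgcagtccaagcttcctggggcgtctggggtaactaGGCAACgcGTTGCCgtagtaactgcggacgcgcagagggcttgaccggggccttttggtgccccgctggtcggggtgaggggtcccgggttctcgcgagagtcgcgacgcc
Mlf1: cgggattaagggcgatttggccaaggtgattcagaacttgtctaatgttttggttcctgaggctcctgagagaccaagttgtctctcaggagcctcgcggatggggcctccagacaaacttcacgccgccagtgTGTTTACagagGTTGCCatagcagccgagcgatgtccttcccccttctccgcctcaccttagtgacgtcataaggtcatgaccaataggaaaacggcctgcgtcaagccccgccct
Lrrc23: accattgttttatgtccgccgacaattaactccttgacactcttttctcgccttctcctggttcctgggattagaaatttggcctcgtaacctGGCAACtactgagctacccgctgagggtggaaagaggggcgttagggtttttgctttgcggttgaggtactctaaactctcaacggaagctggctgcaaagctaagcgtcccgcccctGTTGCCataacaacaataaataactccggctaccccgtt
Tekt2: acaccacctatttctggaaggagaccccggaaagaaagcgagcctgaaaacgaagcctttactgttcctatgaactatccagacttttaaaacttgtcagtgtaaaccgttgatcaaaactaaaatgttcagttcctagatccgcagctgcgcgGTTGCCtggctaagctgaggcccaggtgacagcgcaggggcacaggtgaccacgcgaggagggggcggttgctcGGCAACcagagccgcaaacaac
Tmem212: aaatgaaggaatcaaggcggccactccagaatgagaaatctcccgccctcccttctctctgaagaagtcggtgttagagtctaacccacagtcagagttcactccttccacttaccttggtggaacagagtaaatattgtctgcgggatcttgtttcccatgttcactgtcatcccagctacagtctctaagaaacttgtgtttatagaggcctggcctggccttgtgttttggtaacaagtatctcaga
In Spag16 the half-sites of both orientations began 111 and 103 bases before the start site. Mlf1 held the forkhead letters at 116 bases and a half-site at 105 bases. A match describes the letters only, and binding was not measured.

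Library totals ranged from 12169474 to 24842764 counts in the neocortex and from 19552353 to 25331954 in the hippocampus. A nominal floor of 3 counts thus stands for 0.123 to 0.247 CPM, the counts scaled to the library total. Levels below this floor were kept, such as Tmem212 at 0.0489 CPM in cTKO neocortex library 2. The targeted genes App, Aplp1 and Aplp2 fell in both regions, with no overlap between the genotypes. Libraries 5 of the cTKO neocortex and 4 of the cTKO hippocampus stood apart by 318 and 195 CPM of H19, which did not exceed 2.15 CPM elsewhere. Floors of this kind cover counting error only. The regions were extracted with different RNA kits, so region and kit cannot be told apart.

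In the hippocampus, Vwa3a and Vwa5b1 were the members that fell in cTKO mice by edgeR's quasi-likelihood test, by 1.75 and 1.53 on the log2 scale, and DESeq2 called Map3k19 as well. Map3k19, Foxj1 and most genes of the dynein arms, radial spokes and central pair had lower means in cTKO mice with FDR values between 0.178 and 0.927 in the first test. In the neocortex the quasi-likelihood test called none of the members, the exact and likelihood ratio tests called Vwa3a, and DESeq2 called Vwa3a, Map3k19 and Dnah5. The genotypes did not overlap there for Vwa3a. Relative to the other 31 members, the level of Vwa3a separated the genotypes without overlap in both regions, all 5 cTKO libraries being lower. This is a description only. Vwa3a was listed with its change known, and its own level already separated the genotypes in both regions.

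Vwa3a encodes a protein with a von Willebrand factor A domain, and it lies on chromosome 7 (120739318 to 120805742, GRCm38). In the hippocampus its level was 10.2, 10.4, 12.0, 14.5 and 11.5 CPM in controls 1 to 5 and 2.71, 3.24, 2.39, 2.30 and 6.78 CPM in cTKO mice 1 to 5. The groups did not overlap, and cTKO library 5 was the one nearest the controls. The mean was 11.7 ± 1.72 CPM in the controls and 3.48 ± 1.88 CPM in the cTKO mice (SD, n = 5 each), a log FC of -1.75 (SE 0.266, FDR = 0.0143 by edgeR's quasi-likelihood test). The fold change reached -2.14 without cTKO library 5, and the FDR was 0.0620 without control library 4. Without cTKO library 4, which stood apart, it was -1.64 and still called. In the neocortex Vwa3a was measured at 8.16, 8.42, 7.65, 8.80 and 7.29 CPM in controls, and at 4.97, 4.55, 4.28, 3.39 and 6.0 CPM in cTKO mice. Here too the groups did not overlap. The log FC was -0.80 (SE 0.149, FDR = 0.0545), which missed the threshold in this test. It was called by the likelihood ratio and exact tests of edgeR, by DESeq2 and by the quasi-likelihood test without a filter on low counts (FDR = 0.0323), and it was called without cTKO library 5, which stood apart (log FC -0.91, FDR = 0.00608). The gene overlaps Gm44661 on the opposite strand, and whether the counting used strand is not given in the sources used here.

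Vwa5b1 encodes another protein with this domain and lies on chromosome 4 (138565360 to 138635884). Its hippocampal level was 2.41, 2.62, 4.81, 2.71 and 2.88 CPM in the controls and 1.03, 0.920, 1.07, 1.05 and 1.27 CPM in the cTKO mice. The groups did not overlap, and control library 3 stood above the other controls. The log FC was -1.53 (SE 0.226, FDR = 0.0123 by the same test) and came to -1.31 without control library 3. In the neocortex the level was 3.03, 3.82, 4.44, 4.76 and 3.89 CPM in the controls and 1.49, 2.99, 2.83, 2.60 and 3.48 CPM in the cTKO mice. These ranges overlapped, and the log FC was -0.57 (SE 0.220, FDR = 0.377).

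Map3k19, a protein kinase of the MAP3K family, lies on chromosome 1 (127815253 to 127855031). Its hippocampal level was 10.2, 6.35, 8.90, 7.18 and 9.99 CPM in the controls and 6.31, 4.47, 5.07, 4.26 and 7.33 CPM in the cTKO mice, with overlap between the groups. The log FC was -0.63 (SE 0.183, FDR = 0.178). In the neocortex it was 7.79, 7.59, 7.16, 5.21 and 7.64 CPM in controls against 5.15, 4.80, 3.27, 4.40 and 5.55 CPM in cTKO mice. Only control library 4 lay within the range of the cTKO libraries, and the log FC was -0.60 (SE 0.163, FDR = 0.187). DESeq2 called Map3k19 in both regions, with adjusted p values of 0.0385 in the neocortex and 0.0490 in the hippocampus.

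Foxj1, the transcription factor that drives the genes of motile cilia, served as the defining marker of ciliated cells. In the hippocampus its level was 16.5, 9.83, 16.0, 9.74 and 9.94 CPM in the controls and 12.3, 9.24, 8.95, 11.6 and 11.1 CPM in the cTKO mice. Controls 1 and 3 were high, and the other 3 controls lay inside the range of the cTKO libraries. The log FC was -0.22 (SE 0.175, FDR = 0.688), and it was -0.099 without control 1 and -0.11 without control 3. In the neocortex the log FC was -0.33 (SE 0.176, FDR = 0.549), with 4.55 to 7.59 CPM in the controls and 3.71 to 6.23 CPM in the cTKO mice.

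**Figure D1:**
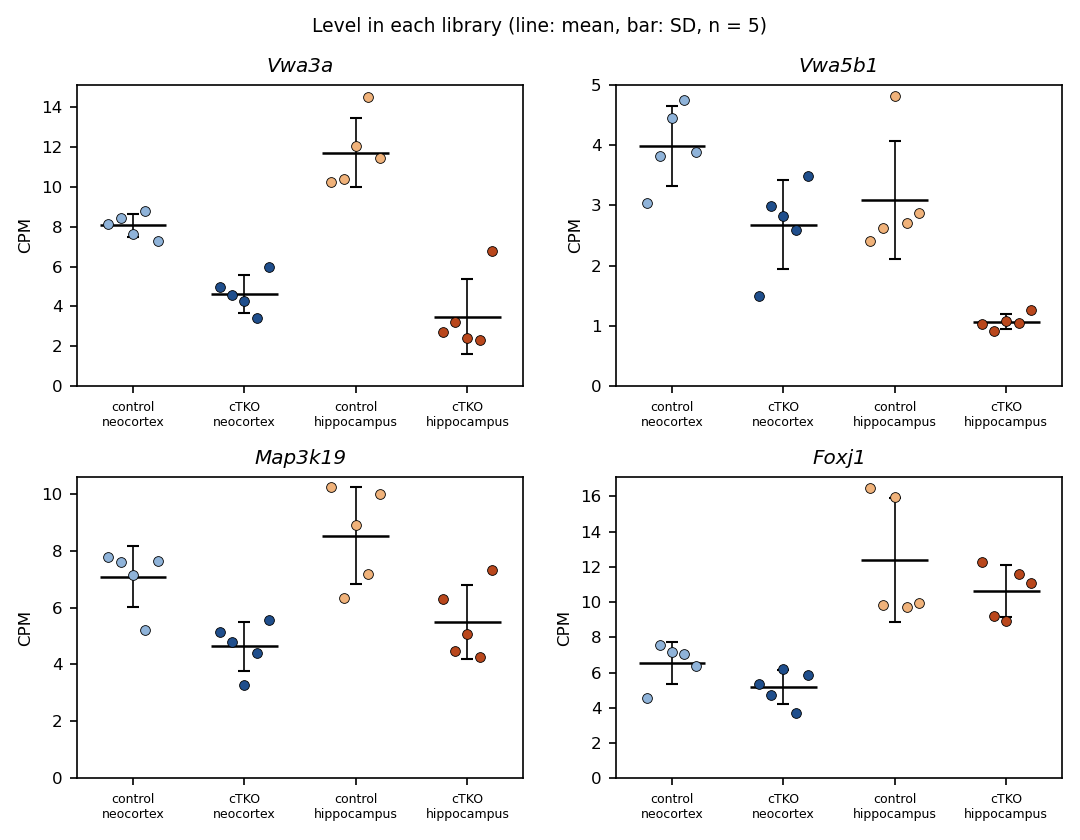
CPM (y axis, linear from 0) of Vwa3a, Vwa5b1, Map3k19 and Foxj1 in the 20 libraries by genotype and region (x axis), each point being 1 library, with the mean as a line and the SD as a bar (n = 5). Vwa3a was separated by genotype in both regions and Vwa5b1 in the hippocampus only, whereas Map3k19 and Foxj1 overlapped in both.

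Over all members, the hippocampus gave 2 called genes of the 28 that passed the filter (more than 1 CPM in 5 or more of the region's 10 libraries), against 0.489% of the 13702 genes tested, and both belong to the 3 genes listed with their change known. At an unadjusted p under 0.05 there were 5, all lower in cTKO mice, against 12% of all genes in either direction, and for 2 the genotypes did not overlap, against 3.13% of all. The fold change was below 0 for 26 of the 28, where 48.4% of all genes tested were lower. The 25 tested members other than Vwa3a, Map3k19 and Vwa5b1 held none of the calls, and 2 of them, Dnah2 and Spag16, had an unadjusted p under 0.05. Of these 25, 23 had a fold change below 0, and their median log FC was -0.36. With every member fitted, filter or not, 29 of the 31 were below 0 and the median was -0.38. DESeq2 called 3 members in this region, and the exact and likelihood ratio tests 2 each. The share of all genes that these 3 tests called is not given here, and 0.489% holds for the quasi-likelihood test only.

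In the neocortex edgeR's quasi-likelihood test called 0 of the 24 members tested, against 0.188% of 13843 genes. Of the 24, 6 had an unadjusted p under 0.05, all lower in cTKO mice, against 10.4% of all genes in either direction. These were Vwa3a, Map3k19, Vwa5b1, Dnah5, Dnah6 and Hydin. The exact and likelihood ratio tests called 1 each, Vwa3a, and DESeq2 called 3, which were Dnah5, Map3k19 and Vwa3a. The share of all genes called by these 3 tests is not given here, and 0.188% holds for the quasi-likelihood test only. Only for Vwa3a did the genotypes not overlap, against 2.36% of all genes tested. The fold change was below 0 for 17 of the 24, against 46.9% of all, and the median over the other 21 was -0.10. With every member fitted, 23 of the 31 were below 0 and the median was -0.23.

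Among the radial spoke genes, which pass signals from the central pair to the dynein arms, none passed in either region. Rsph1 had a log FC of -0.26 (SE 0.221) in the hippocampus and -0.17 (SE 0.202) in the neocortex. Rsph4a had -0.43 (SE 0.234) and 0.15 (SE 0.190). Rsph9 had -0.06 (SE 0.135) and 0.03 (SE 0.181), the values nearest to 0 of this group. Lrrc23 had -0.45 (SE 0.285) in the hippocampus and was below the filter in the neocortex, with 0.371 to 1.56 CPM.

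The outer dynein arms supply most of the force of the beat. Dnah5, one of their heavy chains, had a neocortical level of 10.8, 10.3, 8.39, 7.43 and 7.92 CPM in the controls and of 4.65, 7.88, 5.54, 6.10 and 5.70 CPM in the cTKO mice. Only cTKO library 2 reached into the control range, and the log FC was -0.58 (SE 0.155, FDR = 0.182). In the hippocampus the log FC of Dnah5 was -0.46 (SE 0.234, FDR = 0.464). Dnah9, the heavy chain of the distal part of the cilium, was at 16.5 to 25.4 CPM in control hippocampus and at 14.6 to 24.1 CPM in cTKO hippocampus, a log FC of -0.18 (SE 0.148). In the neocortex its log FC was 0.13 (SE 0.192). The intermediate chain genes Dnaic1 and Dnaic2 had -0.34 (SE 0.247) and -0.29 (SE 0.246) in the hippocampus, and -0.10 and -0.23 in the neocortex. Ccdc114, which docks the arm on the doublet, had -0.44 (SE 0.206) and -0.25 (SE 0.186). Dnah11 had -0.61 (SE 0.281, FDR = 0.419) in the hippocampus and was below the filter in the neocortex.

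Of the inner arm genes, which shape the bend of the cilium, Dnah1 was 1 of 2 members above 0 in the hippocampus, with a log FC of 0.21 (SE 0.159), and had 0.16 (SE 0.126) in the neocortex. Dnah2 had -0.45 (SE 0.181, FDR = 0.350) and -0.03 (SE 0.209). Dnah6 was spread widely within controls, at 4.07, 2.19, 8.13, 2.09 and 1.78 CPM in the hippocampus and 2.38, 4.90, 7.65, 2.41 and 1.53 CPM in the neocortex. The cTKO libraries were closer together, at 1.44 to 2.63 CPM and 1.52 to 2.52 CPM, and the log FC was -0.81 (SE 0.393) and -0.85 (SE 0.370) with FDR values of 0.441 and 0.440. Dnali1, a light chain, had -0.28 (SE 0.277) in the hippocampus and was below the filter in the neocortex. Dnah10 was below the filter in both.

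Ccdc39 and Ccdc40 form the ruler that sets the spacing of dynein arms and spokes. Ccdc39 had a log FC of -0.19 (SE 0.126) in the hippocampus and -0.01 (SE 0.103) in the neocortex, and Ccdc40 had 0.15 (SE 0.259) and -0.22 (SE 0.231). Ccdc113 had -0.33 (SE 0.327) and 0.01 (SE 0.193). Ccdc153, a marker often used for ependymal cells, had -0.36 (SE 0.307, FDR = 0.720) and -0.65 (SE 0.340, FDR = 0.537), with 2.46 to 8.29 CPM in control hippocampus and 2.39 to 5.17 CPM in cTKO hippocampus. These ranges overlapped for all 4 genes.

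In the central pair, Hydin, whose loss is known to cause hydrocephalus in mice, was at 2.26, 4.60, 2.88, 2.48 and 1.95 CPM in control neocortex and at 1.72, 1.27, 1.38, 1.17 and 2.15 CPM in cTKO neocortex. One library of each genotype made the overlap, and the log FC was -0.88 (SE 0.267, FDR = 0.237). In the hippocampus it was -0.36 (SE 0.243, FDR = 0.620). Spag16 had a log FC of -0.96 (SE 0.420, FDR = 0.385) in the hippocampus, where control library 3 alone was at 4.13 CPM and the other controls at 0.618 to 1.76 CPM. Spef2 had -0.53 (SE 0.262) and -0.07 (SE 0.399), and Spag17 was below the filter in both regions. Of the tektins, which stabilise the doublets, Tekt1 had -0.33 (SE 0.283) and 0.15 (SE 0.242), Tekt2 had 0.18 (SE 0.223) in the neocortex, and Tekt4 was below the filter in both. Ak7, an adenylate kinase of the cilium, had -0.51 (SE 0.308) and -0.13 (SE 0.357), and Mlf1 had -0.46 (SE 0.353) in the hippocampus. Tmem212 and Armc3 were below the filter in both regions, at 0.628 to 1.86 and 0.601 to 1.86 CPM in control hippocampus.

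**Figure D2:**
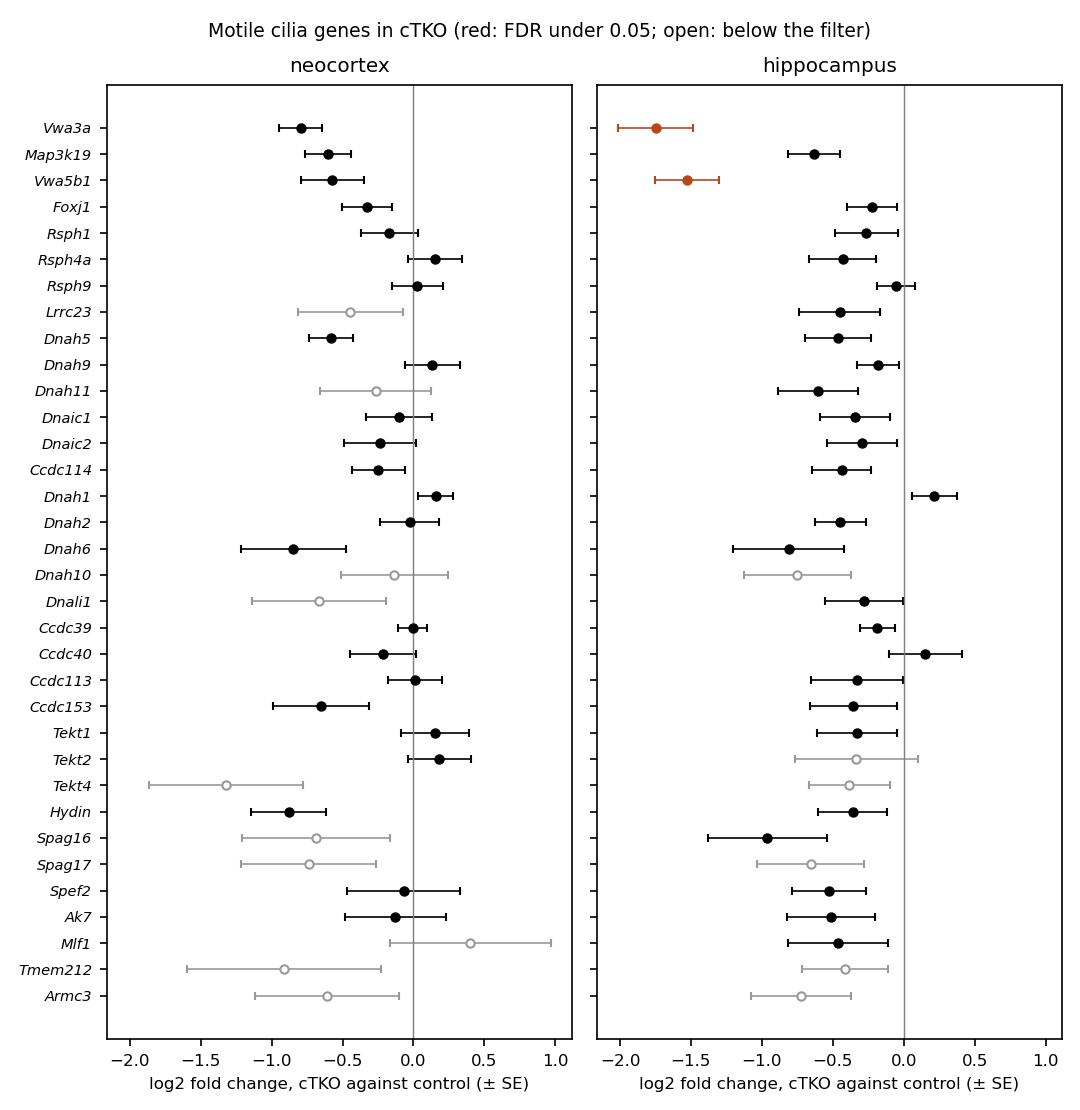
Log2 fold change of cTKO against control with its SE (x axis) for the 34 members with a row (y axis, ordered by role), in the neocortex on the left and the hippocampus on the right. Red points passed an FDR of 0.05, black points were tested and did not, and open grey points were below the filter and come from the fit without it. Vwa3a and Vwa5b1 in the hippocampus are the 2 red points, and most others of that region lie between 0 and -1.

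The hippocampal controls differed among themselves in the level of the whole group. The mean log2 CPM of the 31 other members was 1.98, 1.35, 2.08, 1.35 and 1.23 in controls 1 to 5 and 1.28, 1.39, 1.04, 1.17 and 1.46 in cTKO mice 1 to 5. Controls 1 and 3 were high, and the other 3 controls lay within the range of the cTKO libraries. Control 1 had the highest level of the 10 hippocampal libraries for 11 of the 31 genes and control 3 for 18, together 29 of 31. The group means were 1.60 ± 0.40 and 1.27 ± 0.17 (SD, n = 5 each). The median log FC of the tested members among these was -0.23 without control 1 and -0.24 without control 3, and it reached -0.44 without control 4. In the neocortex the means were 1.0 ± 0.30 in controls and 0.77 ± 0.18 in cTKO mice, with 0.61 to 1.39 and 0.59 to 1.05 per library. In bulk tissue, fewer ependymal cells and less of these RNAs per cell cannot be told apart. Among the cTKO libraries of each region, number 5 had the highest mean of the 31 members. It also had the most Vwa3a, Map3k19 and Vwa5b1 of them. Among the controls of each region, the library with the highest mean was not the one with the most Vwa3a or Map3k19.

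Markers of ependymal cells outside the list and of the choroid plexus were read beside these values. Of 10 other ependymal markers, among them Pltp, Rarres2 and Hdc, edgeR's test called 0 of the 9 tested in the hippocampus. All 9 had a fold change below 0, against 48.4% of all genes tested, with a median of -0.45, and 2 had an unadjusted p under 0.05, against 12%. In the neocortex 0 of 6 were called, 5 were below 0, against 46.9% of all, the median was -0.10 and none had an unadjusted p under 0.05. Their summed level was 101, 88.4, 92.9, 68.9 and 58.5 CPM in controls 1 to 5 and 58.9 to 72.4 CPM in cTKO mice, so that the first 3 controls were above every cTKO library. Of 15 choroid plexus markers, 0 of 14 tested were called, with all 14 below 0, a median log FC of -1.54 and 8 at an unadjusted p under 0.05. Their summed level was 449, 533, 2952, 303 and 90.9 CPM in the controls and 150, 172, 173, 222 and 657 CPM in the cTKO mice. In the neocortex 0 of 6 choroid plexus markers were called, with 3 above and 3 below 0, a median of 0.098 and none at an unadjusted p under 0.05. Ttr, the transthyretin gene and the most abundant of them, made up 2464 CPM of hippocampal control 3. None of the 15 was at 0 in all libraries of a group, and their sum in the neocortex was 14.6 to 24.7 CPM. Control 3 was thus high in both the choroid plexus markers and the 31 members. Control 1, the other library with high members, had less of the choroid plexus markers than control 2. Of the controls, the first 3 had the highest sums of both the choroid plexus and the other ependymal markers. Of the cTKO hippocampal libraries, number 5 had the most choroid plexus markers (657 CPM) and other ependymal markers (72.4 CPM). Its mean of the 31 members was also the highest of them (1.46), as were its Vwa3a, Map3k19 and Vwa5b1. The order of the other cTKO libraries differed between these marker sums and the mean.

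**Figure D3:**
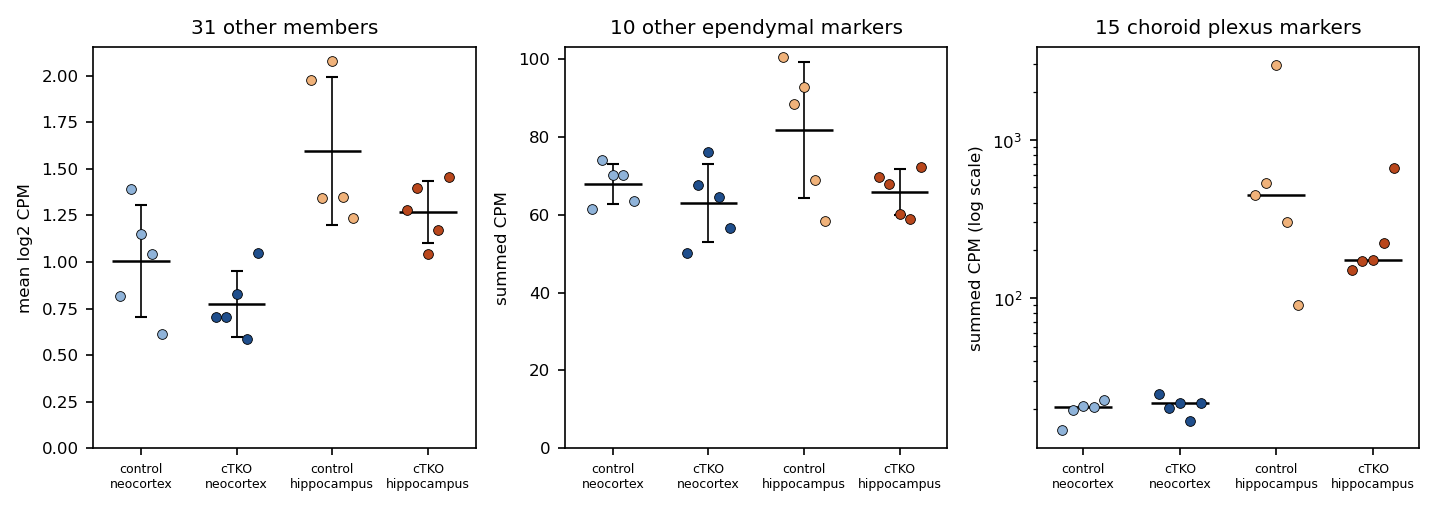
Mean log2 CPM of the 31 other members (left), summed CPM of 10 other ependymal markers (middle) and summed CPM of 15 choroid plexus markers on a log scale (right) in each library, by genotype and region. Lines are means with SD bars, and medians on the right. Hippocampal controls 1 and 3 are high on the left, and control 3 reaches 2952 CPM on the right.

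With the log2 level of the choroid plexus markers as a covariate, Vwa3a had a log FC of -1.67 (FDR = 0.0263) and Vwa5b1 one of -1.34 (FDR = 0.0223) in the hippocampus, both still called. The median of the other members came to -0.18 and Foxj1 to -0.08. Control 3 and cTKO 5, the library of each genotype with the highest choroid plexus level, were then both left out. Vwa3a had a log FC of -2.12 (FDR = 0.000317) and Vwa5b1 one of -1.37 (FDR = 0.0121). Map3k19 had -0.74 (FDR = 0.143), Foxj1 -0.13, and the other members a median of -0.29. But cTKO 5 was also the cTKO library with the most Vwa3a, at 6.78 CPM. Without cTKO 5 alone the log FC of Vwa3a was already -2.14. For Vwa3a this fit thus cannot separate choroid plexus level from the loss of that library. With the mean level of the other members themselves as the covariate, Vwa3a had -1.65 (SE 0.292, FDR = 0.0730) and Vwa5b1 -1.32 (SE 0.243, FDR = 0.0928), neither of which passed. Map3k19 had -0.50 (FDR = 0.603) in that fit. Foxj1, which is part of that mean, had 0.11 with it and 0.11 (SE 0.141) with a mean of the 30 others. In the neocortex the same covariate gave -0.69 for Vwa3a (FDR = 0.207) and -0.60 for Map3k19 (FDR = 0.332).

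The same was read within each library as the log2 level of a gene minus the mean log2 level of the 31 other members. For Vwa3a in the hippocampus this was 1.39, 2.05, 1.52, 2.52 and 2.30 in controls and 0.21, 0.35, 0.28, 0.09 and 1.33 in cTKO mice. The groups did not overlap, although cTKO library 5 came close to control 1. In the neocortex it was 1.70 to 2.27 in controls and 1.22 to 1.64 in cTKO mice, again without overlap. For Vwa5b1 in the hippocampus the values were -0.65 to 0.34 in controls and -1.37 to -0.81 in cTKO mice, without overlap, and in the neocortex they overlapped. For Map3k19 they were 1.09 to 2.10 and 0.80 to 1.44 in the hippocampus, and 1.37 to 2.34 and 0.92 to 1.69 in the neocortex, with overlap in both. These values are a description, since Vwa3a, Map3k19 and Vwa5b1 were listed with their change known.

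**Figure D4:**
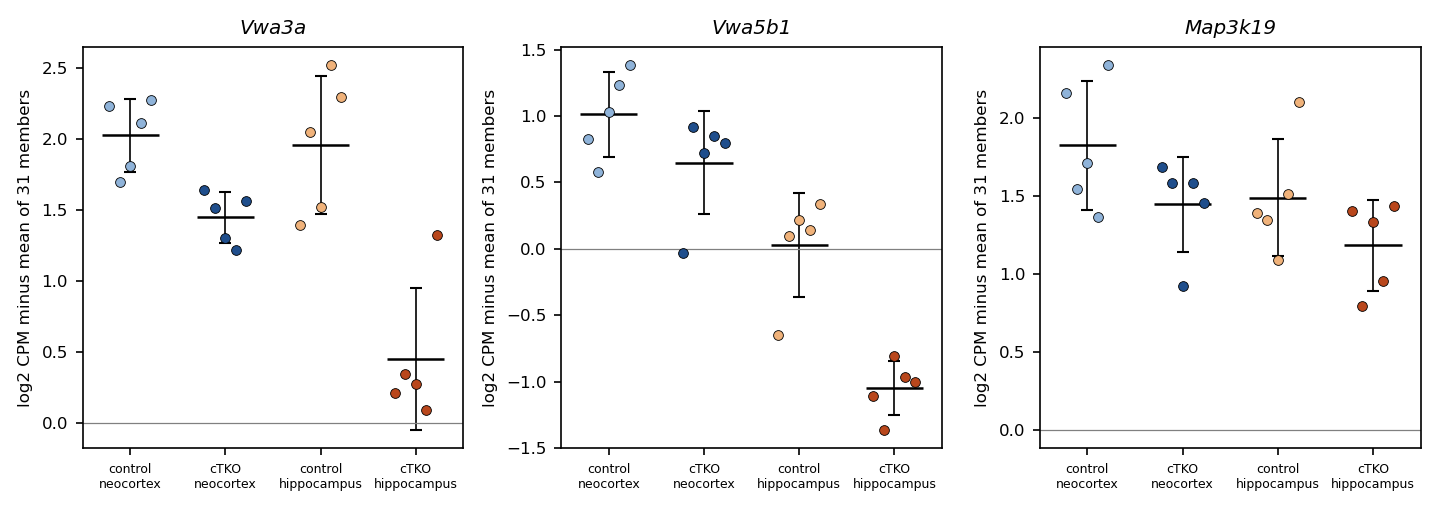
Log2 CPM of Vwa3a, Vwa5b1 and Map3k19 minus the mean log2 CPM of the 31 other members of the same library (y axis) by genotype and region (x axis), with 1 point per library, the mean as a line and the SD as a bar (n = 5). The genotypes are apart for Vwa3a in both regions and for Vwa5b1 in the hippocampus, and they overlap for Map3k19.

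Further genes of the same machinery were counted from lists chosen beside the members. Of 76 other motile cilia genes, which share Cfap126 and Dynlrb2 with the other ependymal markers above, 68 had a row. In the hippocampus 0 of the 49 tested were called, with 8 at an unadjusted p under 0.05, 33 below 0 and a median log FC of -0.19. Over all genes tested in that region, 0.489% were called, 12% had an unadjusted p under 0.05 and 48.4% were below 0. In the neocortex 0 of 46 were called, with 5 at an unadjusted p under 0.05, 26 below 0 and a median of -0.07, where 0.188%, 10.4% and 46.9% of all genes were called, under 0.05 and below 0. Of 29 genes of primary cilia and intraflagellar transport, which nearly all cells use, 0 were called in either region and the medians were -0.03 in the hippocampus and -0.02 in the neocortex, with 1 and 5 at an unadjusted p under 0.05 and 18 below 0 in each. The exact and likelihood ratio tests and DESeq2 also called 0 genes of these lists, as they did of the other ependymal and the choroid plexus markers. Of the regulators of multiciliated cells, 0 of 11 were called in the hippocampus and 0 of 9 in the neocortex, with 2 and 1 at an unadjusted p under 0.05 and 8 and 3 below 0, beside the same shares of all genes. The RFX genes Rfx1, Rfx2, Rfx3 and Rfx4 had hippocampal log FC values from -0.18 to -0.01. Gmnc, a geminin relative that starts the multiciliated programme and was singled out after its values were seen, had a log FC of -1.43 (SE 0.311, FDR = 0.0757) in the hippocampus. Its level there was 2.85 to 5.86 CPM in the controls and 0.619 to 2.17 CPM in the cTKO mice. The genotypes did not overlap, which held for 3.13% of all genes tested in that region. Gmnc was called by the exact and likelihood ratio tests and by DESeq2, and Tfdp1, with a log FC of 0.26, by DESeq2 alone. How large a share of all genes these 3 tests called is not given here.

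Whether the genotype difference itself differed between the regions was tested with the region by genotype interaction. Of the 30 members tested, 0 were called, against 0.0564% of 14192 genes. At an unadjusted p under 0.05 there were 2, against 3.75% of all. Vwa3a had an interaction of -0.94 (SE 0.315, FDR = 0.809) and Vwa5b1 one of -0.95 (SE 0.315, FDR = 0.809), the difference being larger in the hippocampus. For Map3k19 it was -0.02 (SE 0.250). A difference between the regions was therefore not shown for any member.

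In controls alone, the members were compared between hippocampus and neocortex. Of the 27 tested, 13 were higher in the hippocampus, where 29.8% of 13832 genes were, and 2 were lower, where 29.2% were. Dnah9 had the largest difference, with 19.7, 16.5, 25.4, 20.2 and 23.5 CPM in the hippocampus against 3.20, 3.88, 4.20, 4.69 and 4.72 CPM in the neocortex. The regions did not overlap, and the log FC was 2.36 (SE 0.138, FDR = 1.82e-09). All 4 radial spoke genes were higher in the hippocampus, by 1.23 for Lrrc23, 1.03 for Rsph4a, 1.02 for Rsph1 and 0.75 for Rsph9 on the log2 scale. Ccdc153 was higher by 1.60 (SE 0.351), Ak7 by 1.29 (SE 0.386), Foxj1 by 0.93 (SE 0.186) and Vwa3a by 0.53 (SE 0.107). Dnali1, Spef2, Dnah11 and Dnaic2 were higher by 0.70 to 0.99. Ccdc39 and Ccdc113 were lower in the hippocampus, with a log FC of -0.63 (SE 0.111) and -0.73 (SE 0.268). Map3k19 did not differ beyond the threshold, at 0.26 (SE 0.148, FDR = 0.150). The regions come from the same mice, and with the replicate number as a block, 18 members were called, the added ones being Dnah5, Tekt2 and Vwa5b1, all lower in the hippocampus.

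**Figure D5:**
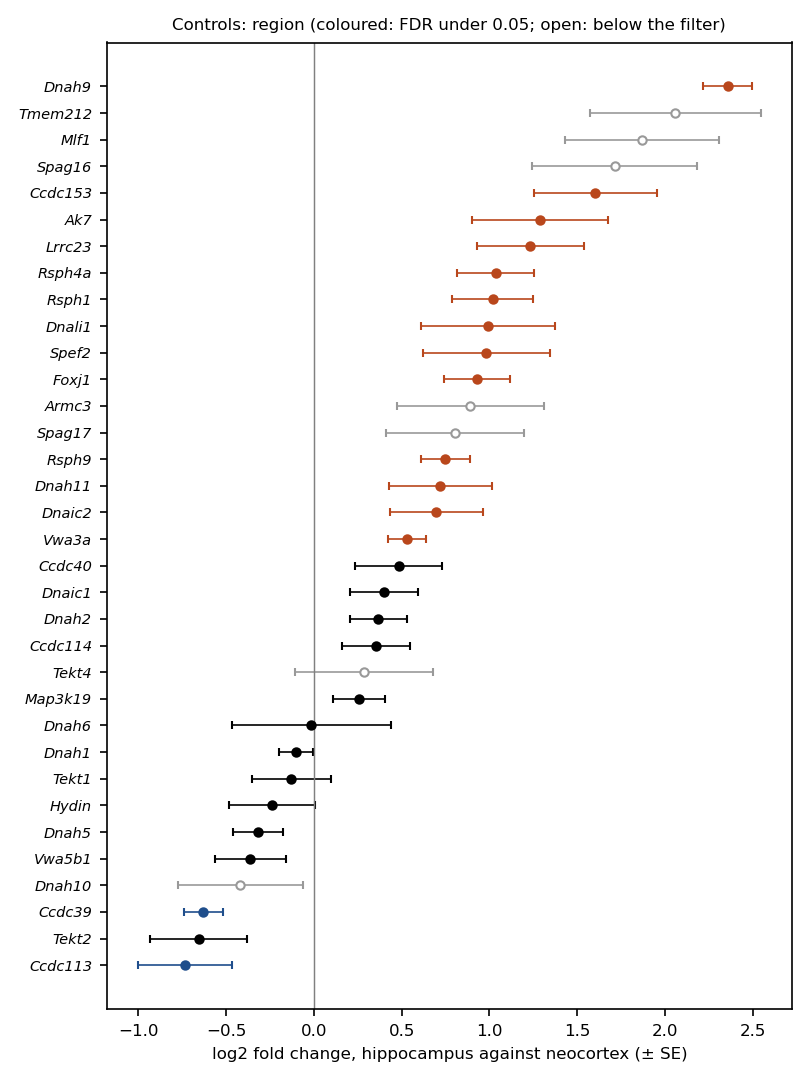
Log2 fold change of hippocampus against neocortex in control mice with its SE (x axis) for 34 members (y axis, sorted by value). Coloured points passed an FDR of 0.05, red higher and blue lower in the hippocampus, black points did not, and open grey points were below the filter. Dnah9 leads at 2.36 and Ccdc113 is lowest at -0.73.

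Set side by side per length, as CPM per kilobase of merged exons, the levels of control hippocampus ran from 4.73 for Foxj1, 4.56 for Rsph1 and 4.43 for Rsph9 down to 0.0563 for Dnah10. Vwa3a was at 1.63, Map3k19 at 1.75 and Vwa5b1 at 0.395 on this scale, all below Foxj1. In control neocortex Ccdc39 was highest at 2.82, ahead of Rsph9 at 2.64. Vwa3a was at 1.12, Map3k19 at 1.45 and Vwa5b1 at 0.511 there, and Tmem212, a membrane protein of ciliated cells, was at 0.393. In GENCODE vM21, 20 of the 36 members, Dnah3 among them, overlap a gene on the opposite strand. The counts of those with a row may hold reads of both.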

How the data were processed

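Poly-A RNA of the neocortex and hippocampus of the same 5 cTKO mice and 5 littermate controls was sequenced as 100-base single reads, 20 libraries in all. Reads were aligned by the authors to mm10 with STAR 2.5.4a and assigned to genes with HTSeq, and the deposited values are raw counts per gene symbol and library. Groups and replicate numbers were taken from the labels, and 0 columns were left out. RNA of the neocortex was extracted with the RNeasy Plus Universal kit and that of the hippocampus with the RNeasy Plus Mini kit.

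A gene entered a comparison when its CPM exceeded 1 in 5 or more of 10 libraries, and TMM set the library sizes. Groups were compared with the quasi-likelihood test of edgeR 4.0.16 in R 4.3.3 (estimateDisp, glmQLFit, glmQLFTest), two-sided, in each region separately. The interaction was tested in 1 fit of all 20 libraries. P values were adjusted over all genes tested by the Benjamini-Hochberg method, and an FDR under 0.05 was called. The SE was derived from the fold change and its F statistic. Levels are CPM on a TMM scale common to all 20 libraries, and log2 CPM used a prior count of 2. DESeq2 1.42.0, other filters and scalings and each library left out in turn were alternatives. The fits were also run on simulated counts, with planted changes of 1 on the log2 scale in genes over 2 CPM, or with none. Smaller changes, and changes in genes of lower level, were not covered, and the outcome is not given here. P values weigh a difference between groups against the spread between these libraries.

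The members and all lists were chosen with earlier results of these data known, so no list is independent evidence. All 36 members were to be named, and of other lists the called or most abundant genes. The choroid plexus covariate, the covariate without Foxj1 and the exclusion of control 3 and cTKO 5 were added after the data were seen. Same-numbered control libraries of the 2 regions deviated together (correlations 0.115 to 0.348 across genes, every one of 5 over 0.1), so the numbers were taken to pair them, although number 5 was not highest at its own number. For the cTKO libraries the correlations were -0.091 to 0.375, below 0 for numbers 4 and 5, and the labels do not say that a number marks a mouse, so the interaction with the replicate block rests on numbers that may not pair. Control and cTKO libraries of 1 region come from different mice and were not paired. Positions, exon lengths and overlaps are from GENCODE vM21, and promoters from RefSeq on GRCm38.p6. Figures were drawn with matplotlib 3.10.9.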

Additional observations from a re-analysis of the deposited data

Results flagged for a closer look

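Within groups of 5 libraries, 6 of 108 groups tested by Dixon's criterion (critical value 0.71) held a library far from the rest, where chance gives about 1 in 20. In the hippocampus these were Vwa5b1 in control 3, high at 4.81 CPM, and Dnali1 and Ak7 in cTKO 3, low at 1.07 and 1.40 CPM. In the neocortex they were Map3k19 in control 4, low at 5.21 CPM, Rsph9 in control 2, low at 3.05 CPM, and Ccdc39 in cTKO 3, low at 16.0 CPM. Without control 3 the hippocampal log FC of Vwa5b1 was -1.31 and still called, and without control 4 the neocortical log FC of Map3k19 was -0.69 and not called.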

How the results depend on the processing

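In the hippocampus the count of called members stayed at 2 in most alternatives. It was 3 with DESeq2, which added Map3k19, and 1 to 2 with 1 library left out, being 1 without control library 4, where Vwa3a was lost (FDR = 0.0620). In the neocortex the count was 1 with no filter and with the likelihood ratio and exact tests, and 3 with DESeq2. The shares of all genes called in these alternatives are not given here. It was 0 to 1 with 1 library left out, Vwa3a being called without cTKO library 3 (FDR = 0.0436) or 5 (FDR = 0.00608). With the level of the other members as a covariate, of which Foxj1 is 1 of 31, Foxj1 in the hippocampus turned from -0.22 to 0.11, neither called. It was 0.11 also with Foxj1 left out of that level, and the cause was not tested. Its value was -0.30 to -0.099 with 1 library left out. The median log FC of the other members stayed below 0 in each alternative, between -0.44 and -0.18 in the hippocampus and between -0.23 and -0.03 in the neocortex. The region comparison in controls gave 11 to 17 called members with 1 library left out and 18 without a filter. With the replicate block, 0 members were called in the neocortex, 2 in the hippocampus, 0 in the interaction and 18 in the region comparison. Between control and cTKO libraries the same numbers deviated together with correlations of 0.004 to 0.211 in the neocortex, with 3 of 5 highest at their own number, and of -0.138 to 0.130 in the hippocampus, with 1 of 5. Depth limits the members below the filter, which the main comparisons did not test.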
